A study of Mus musculus with 4 samples.

Results

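Guanylate-binding proteins are large interferon-inducible GTPases of the dynamin superfamily. The members described are the 8 mouse genes Gbp2, Gbp3, Gbp4, Gbp5, Gbp6, Gbp7, Gbp8 and Gbp9, found by gene symbol. All 8 were found among the 23284 gene symbols of the files. They were measured by RNA sequencing of macrophages grown from the bone marrow of wild-type mice, a primary culture. The 2 galectin-1 libraries came from cultures that received lipopolysaccharide (LPS) at 1 µg/ml for 1 h and then recombinant mouse galectin-1 for 24 h; galectin-1 is a lectin that binds galactosides. The 2 vehicle libraries came from cultures given the same LPS and then phosphate-buffered saline for 24 h. Every culture had therefore met LPS, and LPS-free cells were not analysed here. Mouse age, mouse strain and the galectin-1 dose were not given in the sources used here.

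In macrophages, LPS binds the receptor TLR4, and the TRIF branch of that receptor leads to interferon beta. Interferons act through STAT proteins and interferon regulatory factors on 2 kinds of promoter element, the interferon-stimulated response element (ISRE) and the gamma-activated site (GAS). The guanylate-binding proteins made in response collect on pathogen-containing vacuoles and on bacteria in the cytosol. There they promote the release of microbial products and the activation of the caspase-11 and Aim2 inflammasomes.

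The genes lie in 2 clusters. Gbp5, Gbp7, Gbp3 and Gbp2 lie in this order within 141.1 kb of chromosome 3 (142496934 to 142638008, plus strand), with Gbp2b between Gbp3 and Gbp2. Gbp8, Gbp9, Gbp4 and Gbp6 lie in this order within 334.0 kb of chromosome 5 (105012513 to 105346476, minus strand), together with Gbp10 and Gbp11. Coordinates are RefSeq's on GRCm38.p6, and the submitters' processing notes name the same build as mm10. RefSeq lists the 8 members as protein-coding genes.

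Promoter windows, 250 bases before to 50 bases after an annotated start, were at hand from RefSeq (GRCm38.p6) for 4 of the 8 members, the 4 on chromosome 3. Gbp4, Gbp6, Gbp8 and Gbp9 have no entry. The window of each member that holds a match to an interferon element is shown. Capitals mark the matches, which were searched on both strands as GAAA, any 2 bases and GAAA for the ISRE and as TTCNNNGAA for the GAS, with overlapping matches kept. Positions are counted back from the start, the base just before it being -1.
Gbp2 promoter, chr3:142620413-142620712, plus strand: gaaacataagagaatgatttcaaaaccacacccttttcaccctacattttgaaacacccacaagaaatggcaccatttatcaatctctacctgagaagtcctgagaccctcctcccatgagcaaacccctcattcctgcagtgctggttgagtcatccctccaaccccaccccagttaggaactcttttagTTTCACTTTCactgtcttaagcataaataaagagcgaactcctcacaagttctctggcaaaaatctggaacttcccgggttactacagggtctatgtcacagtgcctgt
Gbp3 promoter, chr3:142559794-142560093, plus strand: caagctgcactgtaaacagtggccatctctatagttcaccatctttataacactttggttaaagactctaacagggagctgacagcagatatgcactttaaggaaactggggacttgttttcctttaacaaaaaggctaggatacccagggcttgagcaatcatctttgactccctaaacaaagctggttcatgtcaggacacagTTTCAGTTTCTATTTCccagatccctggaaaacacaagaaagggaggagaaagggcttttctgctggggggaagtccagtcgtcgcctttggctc
Gbp5 promoter, chr3:142496684-142496983, plus strand: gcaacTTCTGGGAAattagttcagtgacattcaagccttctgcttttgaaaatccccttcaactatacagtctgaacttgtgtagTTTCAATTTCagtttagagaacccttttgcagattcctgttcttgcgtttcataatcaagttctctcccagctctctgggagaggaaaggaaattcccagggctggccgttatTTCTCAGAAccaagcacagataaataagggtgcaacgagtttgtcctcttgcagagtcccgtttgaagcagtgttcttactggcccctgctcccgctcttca
Gbp7 promoter, chr3:142530086-142530385, plus strand: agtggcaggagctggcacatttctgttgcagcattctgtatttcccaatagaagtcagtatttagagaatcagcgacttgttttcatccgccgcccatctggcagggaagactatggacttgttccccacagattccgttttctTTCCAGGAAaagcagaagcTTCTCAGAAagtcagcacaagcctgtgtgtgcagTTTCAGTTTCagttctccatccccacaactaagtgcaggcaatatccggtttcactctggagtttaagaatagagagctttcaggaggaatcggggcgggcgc

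The 4 members had 5 windows in all, of which 4 held an ISRE match, and every member had at least 1. Over all promoters of this length an ISRE match was present in 3.44% of 32851 windows and in 3.99% of 27025 genes. With 4 members this is a description. The ISRE matches shown read on the strand opposite to the gene. In Gbp2 the match lay at -59 to -50, and in Gbp7 at -53 to -44. Gbp3 had 2 overlapping matches, at -45 to -36 and -39 to -30, and its other listed window, not shown, had none. In RefSeq the Gbp3 gene begins at 142560016, upstream of the annotated start used for the window shown. The Gbp3 distances are therefore not from the gene start, as those of Gbp2, Gbp5 and Gbp7 are. In Gbp5 the ISRE match lay farther out, at -165 to -156. Gbp5 and Gbp7 also held 2 GAS matches each, against 8.30% of all windows with at least 1. Windows with both elements made up 0.454% of all windows. Gbp2 and Gbp3 had no GAS match in these letters within the windows shown. A match is a description of the letters and does not show that a factor binds there.

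**Figure D1:**
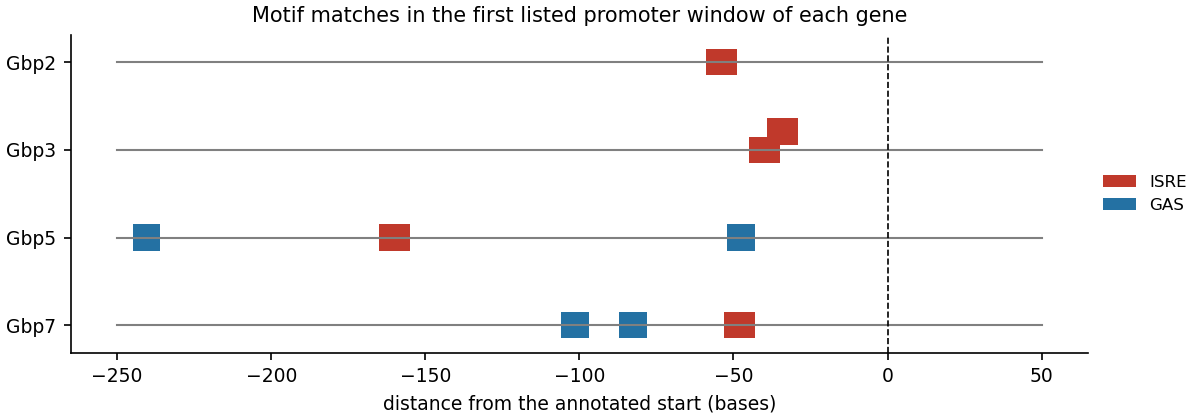
Positions of ISRE (red) and GAS (blue) matches in the promoter windows of Gbp2, Gbp3, Gbp5 and Gbp7. The horizontal axis is the distance from the annotated start in bases, with the start at the dashed line. Gbp3 is shown with the window that holds its 2 overlapping ISRE matches, drawn one above the other.

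The values are FPKM, fragment counts scaled to transcript length and sequencing depth, as deposited by the authors. Library totals were 555507 to 557661 FPKM with galectin-1 and 541138 to 553191 FPKM with vehicle. Absolute depth is unknown. The FPKM steps of low genes gave relative depths between 0.872 and 1.03, with vehicle replicate 1 set to 1. The labelled cell type was checked against its markers: the 7 listed macrophage genes summed to 9131 to 9132 FPKM with galectin-1 and 8397 to 8447 FPKM with vehicle. Lyz2 made up most of these sums, with means of 6246 FPKM with galectin-1 and 5701 FPKM with vehicle. Mertk was the lowest of the 7, with means of 16.9 FPKM with galectin-1 and 19.1 FPKM with vehicle. The labels do not state whether the 2 libraries of a group were separate cultures or animals. The p-values therefore reflect only how far these samples spread, and that spread may be technical.

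Gbp4 fell and Gbp9 fell with galectin-1, and the other 6 members did not pass the test. Groups were compared with limma on log2(FPKM + 1) over 9380 genes whose mean was at least 1 FPKM, and a gene was called at a Benjamini-Hochberg adjusted p under 0.05. All 8 members reached that minimum. The 2 members called lower are to be read beside 0.586% of all tested genes called lower, and the 0 members called higher beside 0.608% called higher. Quantile normalization made 24 of all tested genes higher and 47 lower in place of 57 and 55, and called the same 2 members. The galectin-1 and vehicle values of all 8 members did not overlap. Of these, 6 were lower and 2 higher with galectin-1, where 26.2% of all tested genes were lower and 29.1% higher without overlap. The median log2 fold change was -0.17 over the 8 members and 0.0024 over all tested genes, and 7 of the 8 members had an unadjusted p under 0.05 in limma, as had 23.2% of all tested genes.

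**Figure D2:**
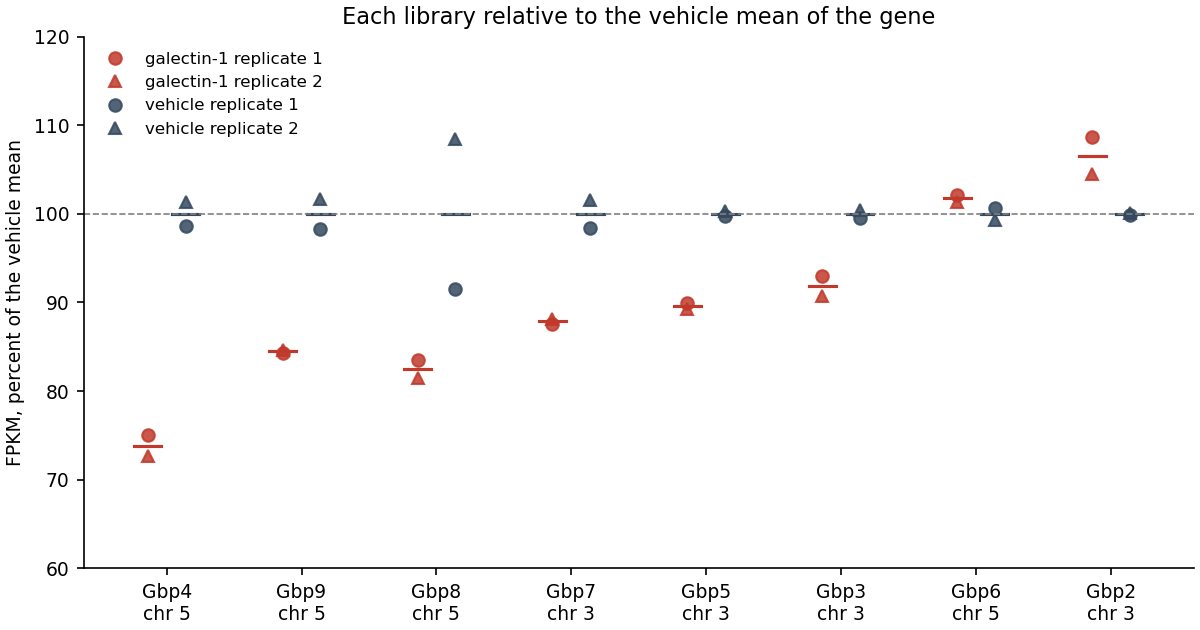
FPKM of each member in each library as a percent of the mean of the 2 vehicle libraries for that gene, with a short bar at the group mean. Galectin-1 libraries (red, left) lie between 72.7% for Gbp4 and 108.6% for Gbp2. Vehicle libraries (dark, right) lie within 2% of 100% for every gene but Gbp8.

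Gbp4, known in the mouse for restraining IRF7-driven interferon production, moved furthest. It had 119 and 115 FPKM in the galectin-1 libraries, against 156 and 161 FPKM in the vehicle libraries. The lowest vehicle library lay 31.5% above the highest galectin-1 library, while replicates of a group lay 2.76% to 3.19% apart. Gbp4 averaged 117 ± 2.60 FPKM with galectin-1 and 158 ± 3.05 FPKM with vehicle (SD, n = 2 each). It fell by 26.2%, or -0.43 ± 0.03 in log2 fold change (SE, limma, adjusted p = 0.0179, 95% interval -0.52 to -0.35).

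Gbp9, one of the mouse proteins found on Toxoplasma vacuoles, had 177 FPKM in each galectin-1 library, against 206 and 213 FPKM in the vehicle libraries. The galectin-1 libraries were 0.417% apart and both lay below the vehicle libraries, which were 3.37% apart. Gbp9 averaged 177 ± 0.520 FPKM with galectin-1 and 209 ± 4.91 FPKM with vehicle (SD, n = 2 each) and fell by 15.5%. Its log2 fold change was -0.24 ± 0.03 (SE, limma, adjusted p = 0.0446). Neither call held when any 1 of the 4 libraries was left out: the adjusted p in limma was then 0.0696 to 0.105 for Gbp4 and 0.161 to 0.221 for Gbp9. The log2 fold change in these fits was -0.46 to -0.41 for Gbp4 and -0.27 to -0.22 for Gbp9. Such a fit has 1 library in an arm and assumes that it varies like the other group. Both calls were also lost with no filter on low values (adjusted p = 0.123 for Gbp4 and 0.130 for Gbp9) and in limma without the variance trend (0.138 and 0.140). Over all 12 alternatives the adjusted p ran from 0.00419 to 0.138 for Gbp4 and from 0.0167 to 0.221 for Gbp9.

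Gbp5 and Gbp2 were the most abundant members. Gbp5, which carries a prenylation signal and is known for promoting NLRP3 inflammasome activation, had 942 and 934 FPKM with galectin-1, against 1044 and 1050.0 FPKM with vehicle. Both galectin-1 libraries were lower, and replicates lay 0.578% to 0.854% apart. The log2 fold change of -0.16 ± 0.02 (SE) missed the threshold (limma, adjusted p = 0.0555, 95% interval -0.22 to -0.10). Gbp5 was called in limma with a minimum mean of 5 FPKM (adjusted p = 0.0382) and in 3 other alternatives, and its adjusted p ran up to 0.230 over all of them.

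Gbp2, another prenylated member, needed in mice for restriction of Toxoplasma, ran the other way. It had 1124 and 1081 FPKM with galectin-1, against 1033 and 1035 FPKM with vehicle. The groups did not overlap, but the galectin-1 libraries lay 3.94% apart and the gap between groups was 4.43%. The log2 fold change, 0.09 ± 0.03 (SE), did not pass (limma, adjusted p = 0.148, 95% interval 0.02 to 0.16). The order of these 2 genes differed between the groups: Gbp2 was above Gbp5 in both galectin-1 libraries, with ratios of 1.19 and 1.16, and just below it in both vehicle libraries, with a ratio of 0.990 in replicate 1 and 0.986 in replicate 2.

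Gbp3 and Gbp7 are the other members of the chromosome 3 cluster. Gbp3, whose human relative takes part in caspase-4 activation, had 315 and 308 FPKM with galectin-1, against 338 and 340.5 FPKM with vehicle. Its log2 fold change was -0.12 ± 0.03 (SE, limma, adjusted p = 0.0963, 95% interval -0.19 to -0.05). Gbp7, linked in mouse macrophages to assembly of the NADPH oxidase and to autophagy, had 108 and 109 FPKM with galectin-1, against 122 and 125 FPKM with vehicle. Both members were lower in each galectin-1 library than in any vehicle library. The log2 fold change of Gbp7 was -0.19 ± 0.03 (SE, limma, adjusted p = 0.0628, 95% interval -0.27 to -0.10). Gbp7 was called with a minimum mean of 5 FPKM (limma, adjusted p = 0.0499) and without small RNA entries in the fit (0.0362), and its adjusted p reached 0.239 over all 12 alternatives.

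The other 2 members on chromosome 5 did not pass. Gbp6, one of the members linked to defence against intracellular bacteria in mouse macrophages, had 112.8 and 111.9 FPKM with galectin-1, against 111.2 and 109.7 FPKM with vehicle. The gap between the groups was 0.647%, less than the 1.41% between the vehicle libraries. Its log2 fold change was 0.02 (limma, adjusted p = 0.676), and the 95% interval of -0.05 to 0.10 leaves out a decrease as large as that of Gbp4 or Gbp9. That interval holds for the values of this row and covers only the spread of these libraries. It does not cover any sharing of reads with other genes, described below. Under quantile normalization the log2 fold change of Gbp6 was -0.0030. Gbp8, the least abundant member, had 5.71 and 5.57 FPKM with galectin-1, against 6.26 and 7.42 FPKM with vehicle. Both galectin-1 libraries were lower, but the vehicle libraries lay 18.5% apart. The log2 fold change was -0.24 ± 0.09 (SE, limma, adjusted p = 0.195, 95% interval -0.46 to -0.01). Leaving out vehicle replicate 1 gave -0.34, and leaving out vehicle replicate 2 gave -0.13.

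**Figure D3:**
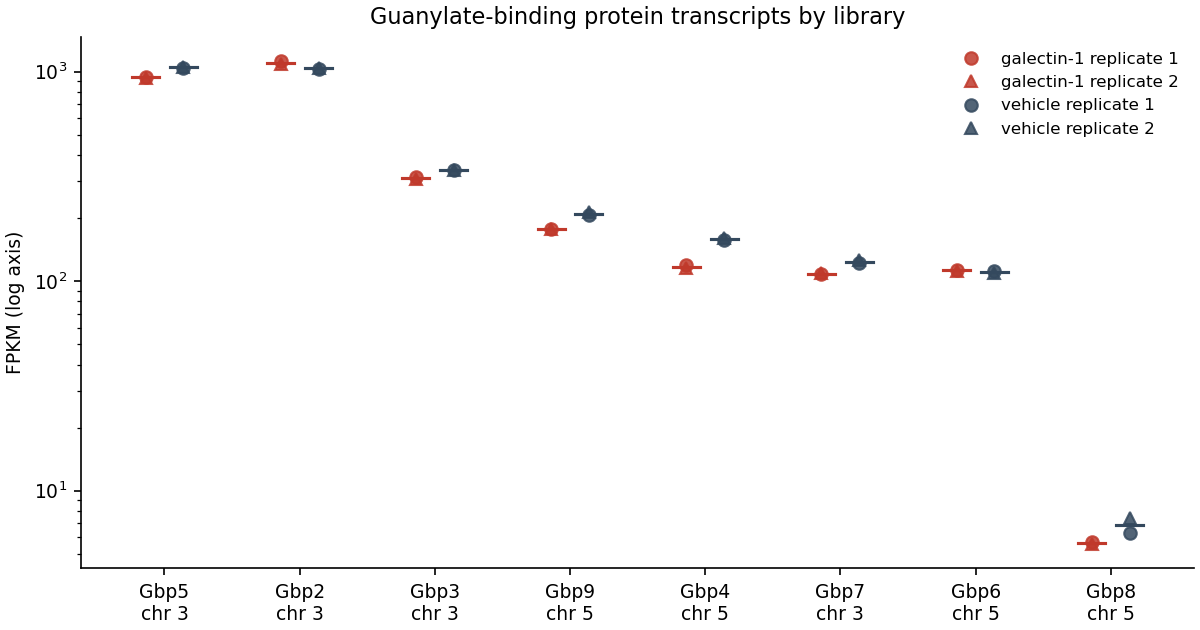
FPKM of the 8 members in each library on a log axis, ordered by the vehicle mean, with a short bar at the group mean and galectin-1 (red) left of vehicle (dark). Levels run from 934 FPKM or more for Gbp5 and Gbp2 to 7.42 FPKM or less for Gbp8.

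The levels of the members, set side by side in FPKM, which is per transcript length, spanned a wide range. In both galectin-1 libraries the order was Gbp2, Gbp5, Gbp3, Gbp9, Gbp4, Gbp6, Gbp7 and Gbp8. In both vehicle libraries it was Gbp5, Gbp2, Gbp3, Gbp9, Gbp4, Gbp7, Gbp6 and Gbp8. The ranges of neighbours in these orders did not overlap within a group, although some lay close: Gbp4 was 1.04-fold above Gbp6 with galectin-1, and Gbp5 was 1.01-fold above Gbp2 with vehicle. Gbp4 was further from Gbp6 in the vehicle libraries, where the ratio was 1.41 and 1.46, than in the galectin-1 libraries, where it was 1.05 and 1.03. Gbp2 and Gbp5 together held 71.2% and 70.9% of the summed FPKM of the members with galectin-1, against 68.9% and 68.6% with vehicle.

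The 8 members summed to 2903 and 2841 FPKM with galectin-1, against 3016 and 3042 FPKM with vehicle. This was 0.521% and 0.512% of the library total with galectin-1, against 0.545% and 0.562% with vehicle. Both galectin-1 sums were lower, with a difference of means of -5.17%. The difference was -15.1% for the chromosome 5 members and -3.28% for the chromosome 3 members. The chromosome 5 members summed to 414 and 410.0 FPKM with galectin-1, against 480 and 491 FPKM with vehicle. The chromosome 3 members summed to 2489 and 2431 FPKM with galectin-1, against 2536 and 2551 FPKM with vehicle. The ratio of the chromosome 5 to the chromosome 3 sum was 0.166 and 0.169 with galectin-1, against 0.189 and 0.192 with vehicle, without overlap. This ratio is no row of the fit across genes, and its difference was not tested. The difference between the groups was not uniform within either cluster. On chromosome 5 the level of Gbp6 hardly differed between the groups while Gbp4 fell. On chromosome 3 the difference of means was 6.59% for Gbp2, against -10.4% for Gbp5, -12.1% for Gbp7 and -8.15% for Gbp3. The small difference of the chromosome 3 sum therefore holds members that went opposite ways.

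Members of this family resemble each other, and the handling of reads that match several of them was not given in the sources used here. In the GENCODE M21 transcripts, 70.7% of the 50-base words of Gbp6 also occurred in transcripts of another gene, and 46.0% of all its words occurred in Gbp10 and 65.0% in the predicted gene Gm43302. For Gbp10 the share was 84.1%, and 73.3% of all its words occurred in Gbp6. The levels of Gbp6 and Gbp10 are uncertain to the extent that reads were shared between them or with Gm43302. Gm43302 has no row of its own among the gene symbols, and how its reads were counted is unknown. The share was 7.70% for Gbp4 and 8.05% for Gbp9, the members that fell. It was 18.1% for Gbp8, 12.7% for Gbp7, 3.75% for Gbp3, 2.03% for Gbp2 and 1.44% for Gbp5. With words of 100 bases the share was 64.5% for Gbp6, 1.64% for Gbp4 and 1.65% for Gbp9. Read length was not given in the sources used here.

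The other guanylate-binding protein rows were low. Gbp10 had 0.126 and 0.248 FPKM with galectin-1, against 0.281 and 0.313 FPKM with vehicle, and was below the minimum for the test. Gbp1, an older symbol of Gbp2b in the RefSeq table, had 0.241 and 0.158 FPKM with galectin-1, against 0.138 and 0.284 FPKM with vehicle. Gbp11, a transcribed pseudogene in RefSeq, had 4.27 and 3.76 FPKM with galectin-1, against 4.05 and 4.15 FPKM with vehicle. The vehicle values of Gbp11 lay between those of the galectin-1 libraries (log2 fold change -0.03, limma, adjusted p = 0.884).

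Immunity-related GTPases, smaller interferon-inducible GTPases that act with the guanylate-binding proteins on pathogen vacuoles, were measured in the same fit. Of 10 tested rows 1 rose, 0 fell and 9 did not pass, beside 0.608% of all tested genes called higher and 0.586% called lower. The median log2 fold change was 0.08, with 8 of 10 positive, beside -0.17 and 2 of 8 positive for the guanylate-binding proteins. Among all tested genes 4754 of 9380 were positive. Igtp, also known as Irgm3, had 411 and 399.9 FPKM with galectin-1, against 342 and 351 FPKM with vehicle. Both galectin-1 libraries were higher, with a log2 fold change of 0.23 (limma, adjusted p = 0.0446). The call of Igtp was lost after quantile normalization (limma, adjusted p = 0.0871), with no filter, without the trend and without any 1 of the 4 libraries, and its adjusted p ran from 0.0181 to 0.221 over the 12 alternatives. Whether the families differ in their response was not tested. Of the Mx and very large interferon-inducible GTPases 3 of 5 rows were tested, and 0 rose or fell. Mx1, an antiviral GTPase, had 983 and 962 FPKM with galectin-1, against 1080 and 1129 FPKM with vehicle (log2 fold change -0.18, limma, adjusted p = 0.0614). Mx2 had 242 and 238 FPKM with galectin-1, against 253 and 254 FPKM with vehicle (-0.08, limma, adjusted p = 0.169).

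**Figure D4:**
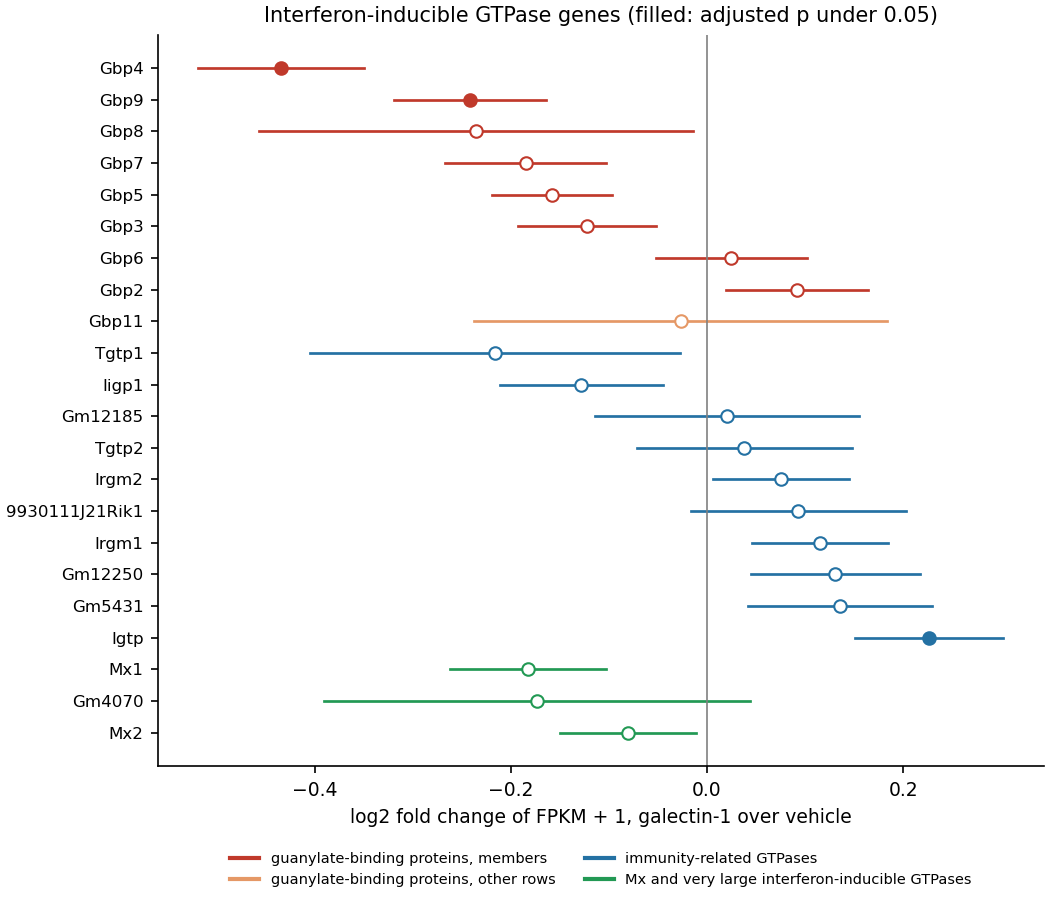
Log2 fold changes of FPKM + 1, galectin-1 over vehicle, for tested rows of interferon-inducible GTPase genes, with 95% intervals from limma. Filled points passed an adjusted p under 0.05: Gbp4 and Gbp9 lie left of 0 and Igtp right of it. Colours mark the gene lists.

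The ligands that induce these genes were low or did not pass. Ifnb1, which encodes interferon beta, had 15.0 and 16.9 FPKM with galectin-1, against 14.5 and 12.9 FPKM with vehicle (log2 fold change 0.21, limma, adjusted p = 0.201). Ifng, which encodes interferon gamma, was listed at 0.210 and 0 FPKM with galectin-1, against 0.144 and 0.0743 FPKM with vehicle. Ifna4 was listed at 0.160 and 0 FPKM with galectin-1 and at 0 with vehicle, and Ifna2 at 0 in every library. The summed level of 6 T and NK cell markers, cells that make interferon gamma, was 0 to 0.0682 FPKM with galectin-1 and 0.0573 to 0.0613 FPKM with vehicle. Of these markers Cd3e, Cd3g, Cd2 and Nkg7 were at 0 in every library.

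None of the 4 interferon receptor chains passed. The type I receptor gene Ifnar1 had 56.4 and 53.6 FPKM with galectin-1, against 55.7 and 57.3 FPKM with vehicle, and its partner Ifnar2 had 125 and 123 FPKM with galectin-1, against 124 and 117 FPKM with vehicle. The groups overlapped for both. The interferon gamma receptor gene Ifngr1 had 52.7 and 53.5 FPKM with galectin-1, against 49.3 and 47.0 FPKM with vehicle (log2 fold change 0.14, limma, adjusted p = 0.132). Its partner Ifngr2 had a log2 fold change of -0.03 (limma, adjusted p = 0.736), with 76.9 and 73.1 FPKM with galectin-1 and 75.7 and 77.0 FPKM with vehicle.

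All 6 receptor kinase and STAT genes were tested and 0 passed. Jak1, the kinase shared by both interferon receptors, had 108.8 and 108.6 FPKM with galectin-1, against 91.8 and 95.6 FPKM with vehicle (log2 fold change 0.21, limma, adjusted p = 0.0581). Stat2, a transcription factor of the type I response, had 177 and 179 FPKM with galectin-1, against 161 and 167 FPKM with vehicle (0.12, limma, adjusted p = 0.129). Over the 6 genes the groups did not overlap, with 4 higher and 2 lower with galectin-1 and a median log2 fold change of 0.05. Among all tested genes 29.1% were higher and 26.2% lower without overlap.

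Of 8 tested interferon regulatory factors and Batf2, 0 passed, with a median log2 fold change of -0.0011. Irf1, a main inducer of the family, had 664 and 661 FPKM with galectin-1, against 684 and 661 FPKM with vehicle (-0.02, limma, adjusted p = 0.704, 95% interval -0.09 to 0.05). Batf2, a partner of Irf1 in activated macrophages, had 147 and 148 FPKM with galectin-1, against 160.5 and 172 FPKM with vehicle (-0.17, limma, adjusted p = 0.101). Irf9, a DNA-binding partner of Stat2, had 63.3 and 68.7 FPKM with galectin-1, against 69.6 and 68.5 FPKM with vehicle. The groups of Irf1 and Irf9 overlapped, and those of Batf2 did not.

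Of 7 inhibitors of interferon signalling 1 rose and 6 did not pass, beside 0.608% of all tested genes called higher. Socs3, a feedback inhibitor of cytokine receptors, had 731 and 737 FPKM with galectin-1, against 635 and 647 FPKM with vehicle (log2 fold change 0.19, limma, adjusted p = 0.0446). Socs1, the feedback inhibitor of interferon receptor kinases, had 298 and 301 FPKM with galectin-1, against 284 and 276 FPKM with vehicle (0.10, limma, adjusted p = 0.140). Of 8 genes from TLR4 to the TRIF branch 0 passed. Tlr4 itself had 22.9 and 23.0 FPKM with galectin-1, against 19.6 and 20.5 FPKM with vehicle (0.19, limma, adjusted p = 0.105). Ikbke, a kinase of this branch, had 145 and 151 FPKM with galectin-1, against 164 and 177 FPKM with vehicle (-0.20, limma, adjusted p = 0.0935).

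The list of caspase-11, other inflammasome genes and related cytokine genes had 12 tested genes. Beside 0.586% of all tested genes called lower, 3 of these 12 fell, while 0 rose and 9 did not pass. Those that fell were the cytokine genes Il1b, Il1a and Il18, whose log2 fold changes were -0.50, -0.36 and -0.37 (limma, adjusted p = 0.00612, 0.0251 and 0.0432). Casp4, which encodes mouse caspase-11, had 251 and 239 FPKM with galectin-1, against 211 and 217 FPKM with vehicle (0.19, limma, adjusted p = 0.0683). Gsdmd, which encodes the pore protein cleaved by that caspase, had 114 and 122 FPKM with galectin-1, against 118 and 116 FPKM with vehicle. Its groups overlapped (0.01, limma, adjusted p = 0.914). Of the 12 genes 6 were positive and 6 negative, with a median log2 fold change of 0.00014.

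Enzymes that modify or place the proteins did not pass. Of 5 prenylation enzyme genes 4 were tested. Fnta, the subunit shared by farnesyl and geranylgeranyl transferases, had 9.22 and 9.41 FPKM with galectin-1, against 10.7 and 10.2 FPKM with vehicle (log2 fold change -0.14, limma, adjusted p = 0.220). Pggt1b, the catalytic subunit of the geranylgeranyl transferase, had 12.4 and 12.3 FPKM with galectin-1, against 14.53 and 13.03 FPKM with vehicle (-0.15, limma, adjusted p = 0.256). The Atg8 conjugation system, needed in the mouse for loading of these GTPases onto vacuoles, had 10 tested genes with a median of 0.03. Atg5, part of its ligase complex, had 7.94 and 7.85 FPKM with galectin-1, against 6.91 and 6.71 FPKM with vehicle (0.19, limma, adjusted p = 0.156).

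Other lists of interferon-inducible genes had medians near that of all tested genes. Of 13 genes listed as interferon gamma-dependent 10 were tested and 0 passed, with a median log2 fold change of -0.03. With Ifng at 0.210 FPKM or less in every library, the listing does not show what induced them here, which was not tested. Cd40, a costimulatory receptor gene, had 484 and 486 FPKM with galectin-1, against 545 and 563 FPKM with vehicle (-0.19, limma, adjusted p = 0.0505). Psmb9, an immunoproteasome subunit gene, had 142 and 143 FPKM with galectin-1, against 161 and 167 FPKM with vehicle (-0.20, limma, adjusted p = 0.0555). Of 18 type I interferon-stimulated antiviral genes 0 rose, 1 fell and 17 did not pass, beside 0.586% of all tested genes called lower. Among these 18 genes 9 were positive and 9 negative, with a median of 0.0047. The one that fell was Xaf1, a pro-apoptotic gene, with 77.5 and 76.8 FPKM with galectin-1, against 89.6 and 91.2 FPKM with vehicle (-0.23, limma, adjusted p = 0.0477).

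**Figure D5:**
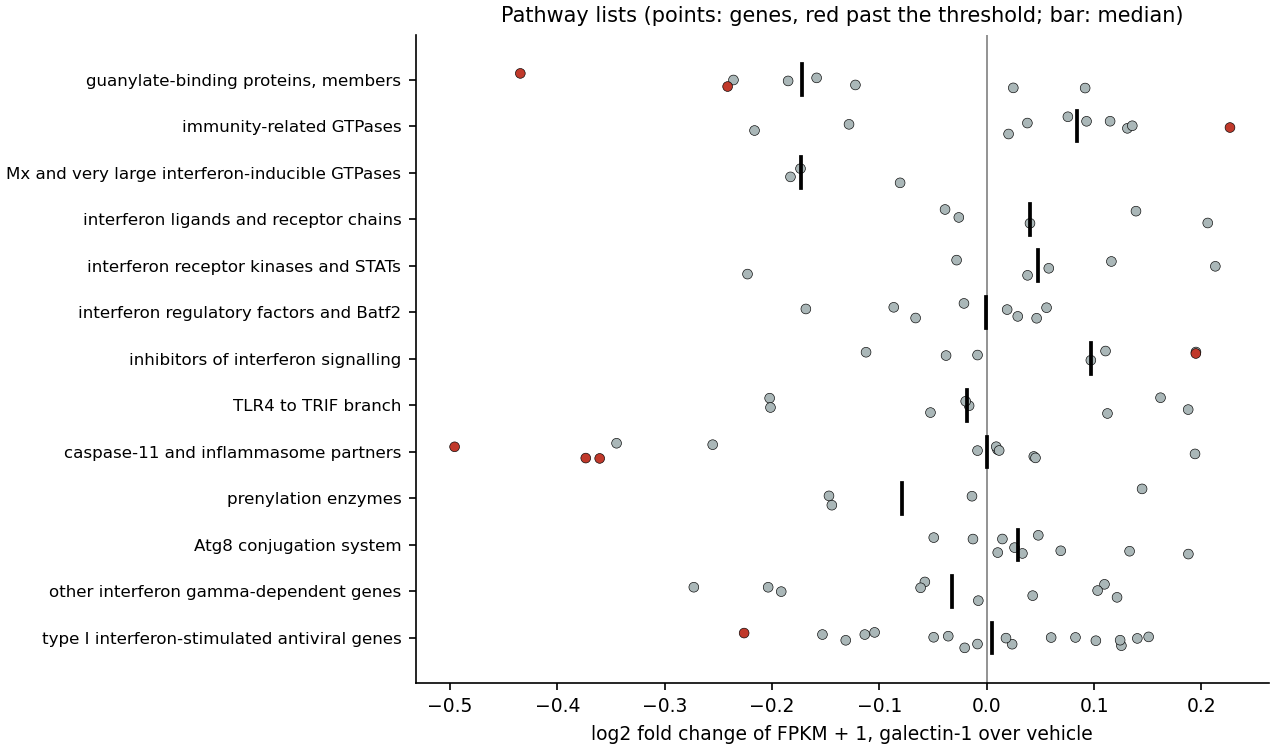
Log2 fold changes of FPKM + 1, galectin-1 over vehicle, for the tested genes of each list. Each point is a gene, placed at random height within its row, red where the adjusted p was under 0.05, and the black bar is the median. The median is -0.17 for the guanylate-binding proteins, 0.08 for immunity-related GTPases and 0.0047 for antiviral genes.

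The calls of Socs3, Il1a, Il18 and Xaf1 were each lost when any 1 of the 4 libraries was left out, with no filter on low values and in limma without the trend, and that of Socs3 also after quantile normalization (adjusted p = 0.0690). Il1b passed without either galectin-1 library and without vehicle replicate 1, and had an adjusted p of 0.0553 in limma without vehicle replicate 2, 0.0637 with no filter and 0.138 without the trend.

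The 3 tested genes outside the family whose values were most like the mean of the 8 members were Ms4a6c, Clptm1l and Trim30d. Likeness was the root mean square distance between centred log2 values over the 4 libraries, and it was 0.0060, 0.0062 and 0.0067 for these genes. Ms4a6c had 385 and 383 FPKM with galectin-1, against 422 and 432 FPKM with vehicle. With 4 libraries this describes a pattern and is no test.

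Markers of other cells that a bone marrow culture could hold were summed in each library. The 5 dendritic cell markers summed to 11.2 to 11.5 FPKM with galectin-1 and 14.7 to 14.8 FPKM with vehicle. Of these 3 were tested and Fscn1 fell (log2 fold change -0.47, limma, adjusted p = 0.0425), a call lost without any 1 of the 4 libraries, while the defining genes Flt3 and Zbtb46 were at most 0.320 FPKM in every library. Fscn1 made up most of the dendritic cell sum, with 7.84 and 8.18 FPKM with galectin-1, against 11.3 and 11.7 FPKM with vehicle. The means of Itgax, Flt3 and Zbtb46 were higher with galectin-1, and that of Ccr7 was lower. The 6 fibroblast markers summed to 18.41 to 19.04 FPKM with galectin-1 and 15.4 FPKM in each vehicle library, and 0 of 5 tested passed. Sums were 13.8 to 14.4 FPKM with galectin-1 and 14.7 to 14.8 FPKM with vehicle for 3 endothelial markers, while 0 of 2 tested passed. Kdr made up most of these endothelial sums, and Pecam1 and Cdh5 were at 1.11 FPKM or less in every library. Sums were 2.62 to 3.53 FPKM with galectin-1 and 2.93 to 3.41 FPKM with vehicle for 4 B cell markers. For 4 neutrophil markers they were 1.38 to 2.31 FPKM with galectin-1 and 1.34 to 2.73 FPKM with vehicle. In either list 1 marker was tested and 0 passed. Of 7 macrophage markers 0 passed and 6 were positive, and Csf1r, the growth factor receptor gene of macrophages, had a log2 fold change of 0.15 (limma, adjusted p = 0.0614). The part of these cells in the differences of the guanylate-binding proteins was not tested. In bulk samples, fewer cells of a type and less RNA per cell cannot be told apart.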

How the data were processed

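RNA came from LPS-treated mouse macrophages, plated at 1000000 per well, and made into stranded mRNA libraries, per the labels' protocols. The authors deposited FPKM values, 1 per gene symbol and library. Named without roles in the submitters' processing notes were the build mm10, Cufflinks 2.2.1, SAMtools 0.1.19, TopHat2 2.0.13 and Bowtie2 2.2.3. Annotation, use of strand and any scaling between libraries were not given in the sources used here. Since FPKM are not counts, no count model was fitted.

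Groups came from the sample titles. The values were tested as log2(FPKM + 1) with limma 3.58.1 (R 4.3.3), moderated with a variance trend, and a 2-sided Benjamini-Hochberg adjustment over 9380 genes whose mean was at least 1 FPKM. It left 2 residual degrees of freedom. Fold changes on this scale understate changes of low genes. Of 160 listed symbols 157 were found in the files. The members and lists were chosen with earlier results of these data known. The genes named are the family, up to 4 of smallest p past the threshold from each list (otherwise up to 2), a fixed set of interferon pathway genes and the 3 nearest profiles; not every gene this rule allows is printed. Ms4a6c stands for the nearest profiles with its values. The alternatives were other scalings, pseudocounts and filters, no variance trend, a replicate block, no small RNA entries and each library left out. Summed FPKM, shares and word counts in GENCODE M21 transcripts (sense strand) were computed in Python 3.11.15.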

Additional observations from a re-analysis of the deposited data

How the results depend on the processing

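Of the 12 alternatives, 2 could change the sign of a member's log2 fold change: quantile normalization and common median scaling. Under these 7 members kept their sign, and Gbp6 was at -0.0030 under quantile normalization. The other alternatives leave the sign as it is by construction. They give the same fold change, or they change the pseudocount or leave out 1 library where the groups do not overlap. Calls were less stable. Of the members, 2 were lower in the main comparison, 0 with no filter on low values, 0 in limma without the trend, 4 with a mean of at least 5 FPKM and 4 with small RNA entries left out, where Gbp5 and Gbp7 joined Gbp4 and Gbp9. Leaving out each library in turn left 0 members lower each time. With no filter 15097 genes entered the fit. Over all genes, 57 were higher and 55 lower. Quantile normalization gave 24 higher. There were 1 higher and 2 lower with no filter, 1 and 1 without the trend, 127 and 99 with a mean of at least 5 FPKM and 189 and 176 with small RNA entries left out. Leaving out each library gave 4 to 9 higher and 3 to 12 lower. Apart from the construction of each alternative, the cause was not tested.

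The same replicate numbers occur in both groups. Deviations of equally numbered libraries correlated at 0.0114 over all tested genes and at 0.042 without small RNA entries. The numbers were not taken to pair the libraries, but a correlation over all genes cannot show that they were unpaired. The replicate block gave more calls, with 123 higher and 117 lower genes in place of 57 and 55. It gave 3 lower members, with Gbp5 added.

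Directions that reversed were all small: under quantile normalization the log2 fold change was 0.011 for Gbp11 and -0.019 for Gsdmd. Leaving out each library gave -0.10 to 0.047 for Gbp11, -0.039 to 0.059 for Gsdmd, -0.0044 to 0.085 for Ifnar2, -0.063 to 0.011 for Ifngr2 and -0.047 to 0.0042 for Irf1. The alternatives run for the ratio of the chromosome 5 to the chromosome 3 sum and for the shares could not move them beyond the replicate spread, so they say nothing about stability. With 2 libraries per group, small differences of low genes such as Gbp8 could not be resolved, and absolute depth is unknown.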
